A study of Mus musculus with 6 samples.

Results

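The integrins and the adhesion molecules that leukocytes use at vessel walls were described in the injured rotator cuff enthesis, the junction of tendon and bone at the shoulder, of wild-type and Nlrp3 knockout mice. The list held 31 genes, chosen by symbol among the 32285 genes of the deposited matrices. All 31 were found: 17 integrin alpha chains, 8 beta chains, the immunoglobulin-type ligands Icam1, Icam2 and Vcam1, the endothelial selectins Sele and Selp, and Selplg, the ligand of P-selectin on leukocytes. The study profiled dissociated cells by droplet single-cell RNA sequencing at 7 days post injury, after the supraspinatus tendon had been cut and sutured back. There were 3 libraries from wild-type mice on the C57BL/6 background and 3 from Nlrp3 knockout mice, in which every cell lacks the inflammasome sensor. The mice were 12 to 14 weeks old per the study's methods, all had the injury and the repair, and entheses were pooled before the cells were loaded. The labels do not say how many mice a library holds, so every p-value measures the spread between libraries. The genotype labels of Nlrp3 knockout replicates 2 and 3 name other Nlrp genes, while their titles say Nlrp3 knockout, and the titles were followed.

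Integrins are surface receptors made of an alpha and a beta chain, and each pairing decides which matrix protein or which partner cell is held. Endothelial cells slow passing leukocytes with selectins, which bind sugars carried on Selplg. Leukocytes then arrest through the integrins that share Itgb2 or carry Itga4, which bind Icam1, Icam2 and Vcam1. In tendon and bone, integrins that contain Itgb1 or Itgav anchor fibroblasts, pericytes and osteoclasts to collagen, laminin, fibronectin and mineralized matrix.

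The targeted gene was read first. Nlrp3 had 7754, 15740 and 10907 unique molecular identifiers (UMIs, each a captured RNA molecule) in the wild-type libraries and 0 in each knockout library. Xist, expressed from the inactive X chromosome, stood at 784 to 933 CPM (counts per 1000000 UMIs) in the knockout libraries and at no more than 0.105 CPM in the wild-type libraries, and the Y-linked Ddx3y was read in the wild-type libraries alone, so genotype and sex cannot be told apart here. The libraries held 97042713 to 134901999 UMIs, and 67591 cells were kept, of which a few in each library stayed unnamed. Nlrp3 knockout replicate 1 stood apart: 49.6% of its 21106 cells were set aside as low-quality clusters and 6.13% as mixed clusters, against 0.548% to 2.11% set aside in the other libraries, so the genotype calls are also given without it. Pairs of libraries shared 26 to 96 cell barcodes, at most 0.639% of the smaller library. Cell types were clustered without the 31 genes and named from marker lists that hold none of them. A name therefore marks cells that resemble a type.

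Promoter sequences are shown for the vessel-wall ligands Sele, Selp and Icam1 and for the myeloid chain Itgam. RefSeq promoters (GRCm38.p6, 250 bases before to 50 bases after the start) were available for 21 of the 31 genes. Sele, E-selectin, lies on the plus strand and its promoter spans chr1:164047984-164048283. Selp, P-selectin, is its neighbour on the same strand (chr1:164115014-164115313). Icam1, the ligand of the Itgb2 integrins, has its promoter at chr9:21015690-21015989 on the plus strand. Capitals in these 3 mark matches on either strand to the NF-kappaB motif GGNNNTTCC, a family of factors known for inducing adhesion molecules during inflammation.
Sele: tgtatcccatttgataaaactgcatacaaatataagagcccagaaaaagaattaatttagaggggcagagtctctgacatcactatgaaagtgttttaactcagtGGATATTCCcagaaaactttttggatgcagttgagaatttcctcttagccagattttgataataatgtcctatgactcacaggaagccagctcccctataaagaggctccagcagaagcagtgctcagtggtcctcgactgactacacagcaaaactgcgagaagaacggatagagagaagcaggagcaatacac
Selp: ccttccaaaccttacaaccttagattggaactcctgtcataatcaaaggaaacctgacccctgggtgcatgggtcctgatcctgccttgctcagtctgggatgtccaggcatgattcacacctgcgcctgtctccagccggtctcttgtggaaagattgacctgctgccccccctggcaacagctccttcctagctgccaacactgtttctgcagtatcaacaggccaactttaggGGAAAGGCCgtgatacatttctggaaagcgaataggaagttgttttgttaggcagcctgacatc
Icam1: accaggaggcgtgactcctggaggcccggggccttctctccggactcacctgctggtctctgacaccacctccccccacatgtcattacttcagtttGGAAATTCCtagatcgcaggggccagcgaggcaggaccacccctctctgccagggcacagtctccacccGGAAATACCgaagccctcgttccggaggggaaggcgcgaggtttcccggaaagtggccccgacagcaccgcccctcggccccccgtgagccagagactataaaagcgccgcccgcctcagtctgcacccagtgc
The Sele match began 145 bases before the start, the Selp match 14 bases before it, and Icam1 held matches 153 and 84 bases before it. The motif was in 6 of the 23 promoters of the listed genes and in 18.5% of all 32851 promoters. Itgam, the alpha chain of the main myeloid integrin, stands for the leukocyte side (chr7:128062390-128062689, plus strand), with capitals at matches on either strand to GAGGAAG, a motif of the myeloid factor PU.1.
Itgam: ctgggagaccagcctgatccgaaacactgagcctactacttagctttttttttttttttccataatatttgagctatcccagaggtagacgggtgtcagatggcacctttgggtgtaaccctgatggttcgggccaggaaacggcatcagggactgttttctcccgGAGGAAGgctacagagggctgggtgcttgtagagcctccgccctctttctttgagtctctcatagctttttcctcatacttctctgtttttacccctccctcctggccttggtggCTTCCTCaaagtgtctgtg
This motif was in 6 of the 23 promoters and in 13.6% of all promoters. A match describes the letters only.

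Levels are CPM: the UMIs of a gene summed over the cells of a type in a library and scaled to all UMIs of those cells. A UMI marks an RNA molecule by its 3′ end, so values were not divided by gene length, and levels are compared for the same gene across cell types. Cells with more UMIs weigh more in such a sum. A gene was counted as present in a type at a mean of at least 20 CPM over the libraries. Over 12 cell types, 1 gene, Itgb1, was present in every type, and 8 genes were present in exactly 1 type. Endothelial cells and T and NK cells each had 15 genes present, macrophages 14, mast cells and basophils 13, hematopoietic progenitors 12, and conventional dendritic cells and pericytes 11 each. Plasmacytoid dendritic cells had 9, B cells 8, neutrophils 7, mesenchymal cells 6 and erythroid cells 2. The map of levels by cell type shows that many genes were shared between types. Itga4 and Icam1 were each present in 10 types, and Itgb2 and Selplg each in 8.

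**Figure D1:**
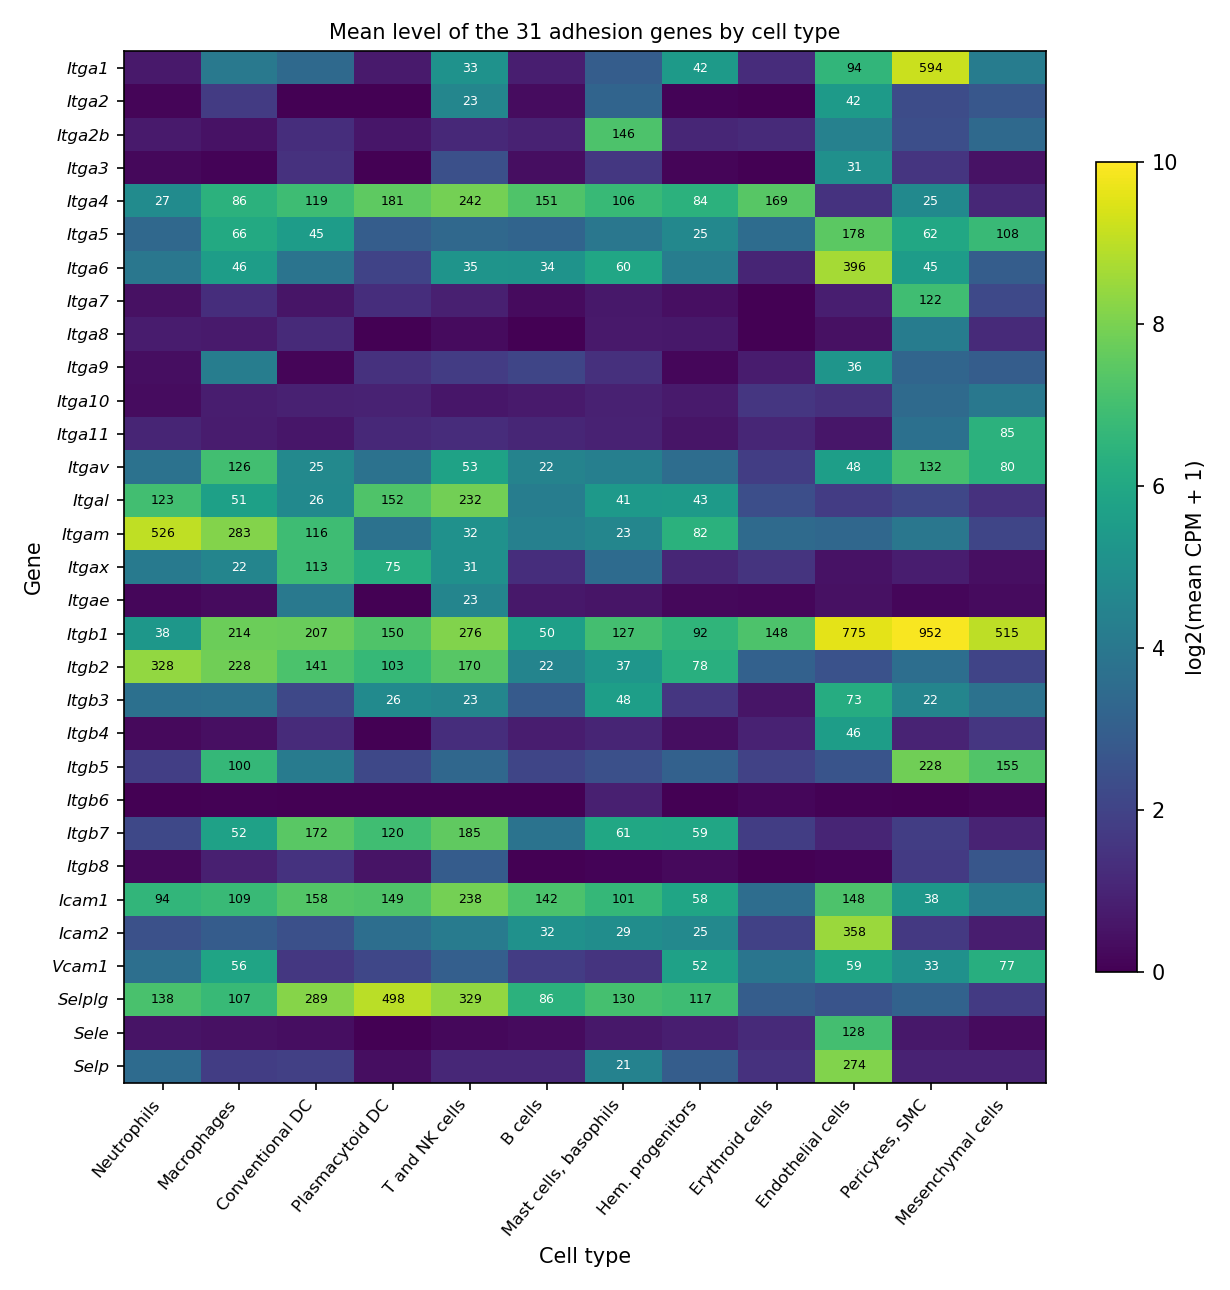
Mean level of the 31 genes (rows) in 12 cell types (columns), on a colour scale of log2(mean CPM + 1) over the libraries, with the mean CPM printed where it is at least 20. Itgam and Itgb2 are printed at 526 and 328 in neutrophils, Itga1 at 594 in pericytes and smooth muscle cells, and Sele and Itga3 only in endothelial cells.

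The Itgb2 family marked the leukocytes. Itgam, whose product pairs with that of Itgb2 and binds Icam1, fibrinogen and complement fragments, ran from 385 through a median of 557 to 679 CPM in neutrophils (lowest, median and highest of 6 libraries). In macrophages the same gene ran from 218 through 286 to 346 CPM, and in conventional dendritic cells from 70.6 through 128 to 157 CPM. Neutrophils and macrophages therefore did not overlap. Itgb2, the shared beta chain, was at 328 ± 46.9 CPM (mean ± SD, n = 6 libraries) in neutrophils, at 228 ± 21.0 in macrophages and at 3.16 in mesenchymal cells. Itgal, the alpha chain that lets lymphocytes and neutrophils bind Icam1, was highest in T and NK cells, at 143, 239 and 299.7 CPM. Plasmacytoid dendritic cells followed at 152 ± 54.2 CPM and neutrophils at 123 ± 24.2, and these ranges overlapped. Itgax, a dendritic cell integrin, was at 113 ± 30.1 CPM in conventional and 74.6 ± 14.8 in plasmacytoid dendritic cells. It was also present in T and NK cells, next in order of mean level, and in macrophages at 22.4 CPM. In neutrophils it was at 16.0 CPM.

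Itga4, which binds Vcam1 and fibronectin, followed another pattern that reached the erythroid cells. Its level was 130, 258 and 347 CPM (lowest, median, highest) in T and NK cells, 106, 163 and 190.4 in B cells, and 129, 158 and 207 in erythroid cells, for which 5 libraries had at least 20 cells. These 3 ranges overlapped, and plasmacytoid dendritic cells lay among them at 181 CPM. Itgb7, whose product joins that of Itga4 or Itgae, was at 185 CPM in T and NK cells, at 172.5 ± 21.3 in conventional dendritic cells and at 3.46 in neutrophils. Itgae, the alpha chain of lymphocytes held in epithelia, passed the cut-off only in T and NK cells, at 15.1, 22.2 and 36.1 CPM. Conventional dendritic cells were at a mean of 15.3 CPM, and the libraries of the 2 types overlapped. T and NK cells held Itga2, a collagen receptor chain of NK cells and platelets, at 10.9, 21.3 and 41.6 CPM, and Itga1 at 33.45 CPM. Itga2 was also present in endothelial cells, at 27.9, 45.35 and 54.8 CPM.

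Most of the matrix-binding integrins below were highest, of the 12 types, in pericytes, endothelial cells or mesenchymal cells. Several were shared, with Itgb1 present in all 12 types and Itga5 in 6. Itgb1, the partner of most matrix-binding alpha chains, was at 952 CPM in pericytes and smooth muscle cells, at 775 ± 81.3 in endothelial cells, at 515 ± 73.5 in mesenchymal cells and at 38.0 ± 9.13 in neutrophils. Itga1, a collagen and laminin receptor chain, was at 419.6, 603 and 719 CPM in pericytes and smooth muscle cells, above its 77.7 to 116 CPM in endothelial cells. Itga7, the laminin receptor chain of muscle, was present among the 12 types only in pericytes and smooth muscle cells, at 88.2, 131 and 145 CPM. Of the 1407 pericytes and smooth muscle cells, 754 came from Nlrp3 knockout replicate 1. Muscle progenitor cells (232 cells, with 20 or more in 3 libraries) were left out of the 12 types, and there Itga7 was at 59.8, 159 and 164 CPM and Vcam1 at 154, 163 and 386.5 CPM. Itgb8 was at 3.86 and 9.20 CPM in these cells of the wild-type libraries and at 108 CPM in Nlrp3 knockout replicate 1. Itga6, which binds laminin of basement membranes, was at 242, 456 and 483 CPM in endothelial cells and at no more than 60.02 CPM on average in any other type. Itga3 and Itgb4, also laminin receptor chains, were present only in endothelial cells, at 31.1 ± 4.39 and 45.8 ± 7.74 CPM. Itga11, the collagen receptor chain of fibroblasts, was present only in mesenchymal cells, at 47.5, 79.9 and 124 CPM. Itga5, the fibronectin receptor chain, was at 178 ± 12.65 CPM in endothelial and 108.5 ± 25.9 in mesenchymal cells.

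Itgav pairs with several beta chains and binds proteins such as vitronectin and osteopontin. It was at 132 CPM in pericytes and smooth muscle cells and at 70.1, 134 and 181 CPM in macrophages. Itgb5, a partner of Itgav, was at 228 ± 47.7 CPM in pericytes, at 155 ± 27.3 in mesenchymal cells and at 99.98 ± 26.3 in macrophages. It was under 20 CPM in the other 9 types. Itgb3, the other main partner, was at 55.1, 67.3 and 101 CPM in endothelial cells and was present in 4 further types. Itga9 passed the cut-off only in endothelial cells, at 36.5 ± 10.1 CPM, with macrophages just under it at 17.96 CPM. Macrophages other than osteoclasts were at 21.8 CPM, and a macrophage subset was higher still, as given below.

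The 4 genes present in none of the 12 types were Itga8, Itga10, Itgb6 and Itgb8. Itga8 was highest in pericytes and smooth muscle cells, at a mean of 17.4 CPM and at most 32.1 CPM in a library. Itga10, the collagen receptor chain of chondrocytes, was at 3.60 to 14.01 CPM in the mesenchymal cells of 5 libraries and at 46.0 CPM in Nlrp3 knockout replicate 2. That library also held 523 of the 769 chondrocyte-like cells, and their part in this value was not tested. Itgb8, which releases active transforming growth factor beta, reached a mean of 6.55 CPM in T and NK cells. Itgb6, a beta chain of epithelia, had 52 UMIs in all 67591 cells.

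Itga2b, the alpha chain of the platelet fibrinogen receptor, passed the cut-off only in mast cells and basophils, at 59.4, 85.8 and 449 CPM. Endothelial cells lay just under it, at a mean of 19.93 CPM and 16.5 to 25.5 CPM over the libraries. The mast cell and basophil class held cells with megakaryocyte markers, and 9 such markers (Pf4, Gp9 and others) summed to 183 to 7190 CPM. The 7190 CPM were in Nlrp3 knockout replicate 2, the library with the highest Itga2b. In the cells of the class with no UMI of these markers, Itga2b stood at 29.1 to 70.3 CPM and Itgb3 at 3.65 to 16.6 CPM. In the 5 to 32 cells per library with at least 3 such UMIs, Itga2b was at 122 to 1211 CPM, while Itgb7 was at no more than 2.32 CPM. The class thus joins a low Itga2b level in cells without those markers with a high level in the few cells that carry them. Selp (20.8 ± 28.4 CPM) and Itgb3 (47.5 ± 77.4 CPM) of the class had SDs above their means.

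The vessel-wall ligands were concentrated in endothelial cells, except Icam1 and Vcam1. Sele, induced on activated endothelium, was at 88.1, 51.6 and 188 CPM in the wild-type and 105, 232 and 104 CPM in the knockout endothelial cells. It was at no more than 1.30 CPM on average in any other type, and at 3.30 to 7.96 CPM in the empty droplets (barcodes with at most 100 UMIs). Selp, stored in endothelial granules and platelets, was at 202, 145 and 312 CPM in the wild-type and 212, 606 and 166 CPM in the knockout endothelial cells. For both selectins the genotypes overlapped, and the highest library was Nlrp3 knockout replicate 2. Icam2, a constitutive endothelial ligand of the Itgb2 integrins, was at 287, 347 and 437 CPM (lowest, median, highest) and at 32.5 ± 7.57 CPM in B cells, the next type in order. Icam1 was present in 10 of the 12 types, from 238 CPM in T and NK cells to 38.25 in pericytes and smooth muscle cells. Vcam1 was present in mesenchymal cells (77.1 ± 16.7 CPM), endothelial cells (58.6 ± 13.6), macrophages (56.2 ± 11.4), hematopoietic progenitors (52.1 ± 16.98) and pericytes (32.75 ± 13.9), and the ranges of neighbours in this order overlapped. Selplg, on the leukocyte side, was at 469.9 to 524 CPM in plasmacytoid dendritic cells and at 2.24 CPM in mesenchymal cells.

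**Figure D2:**
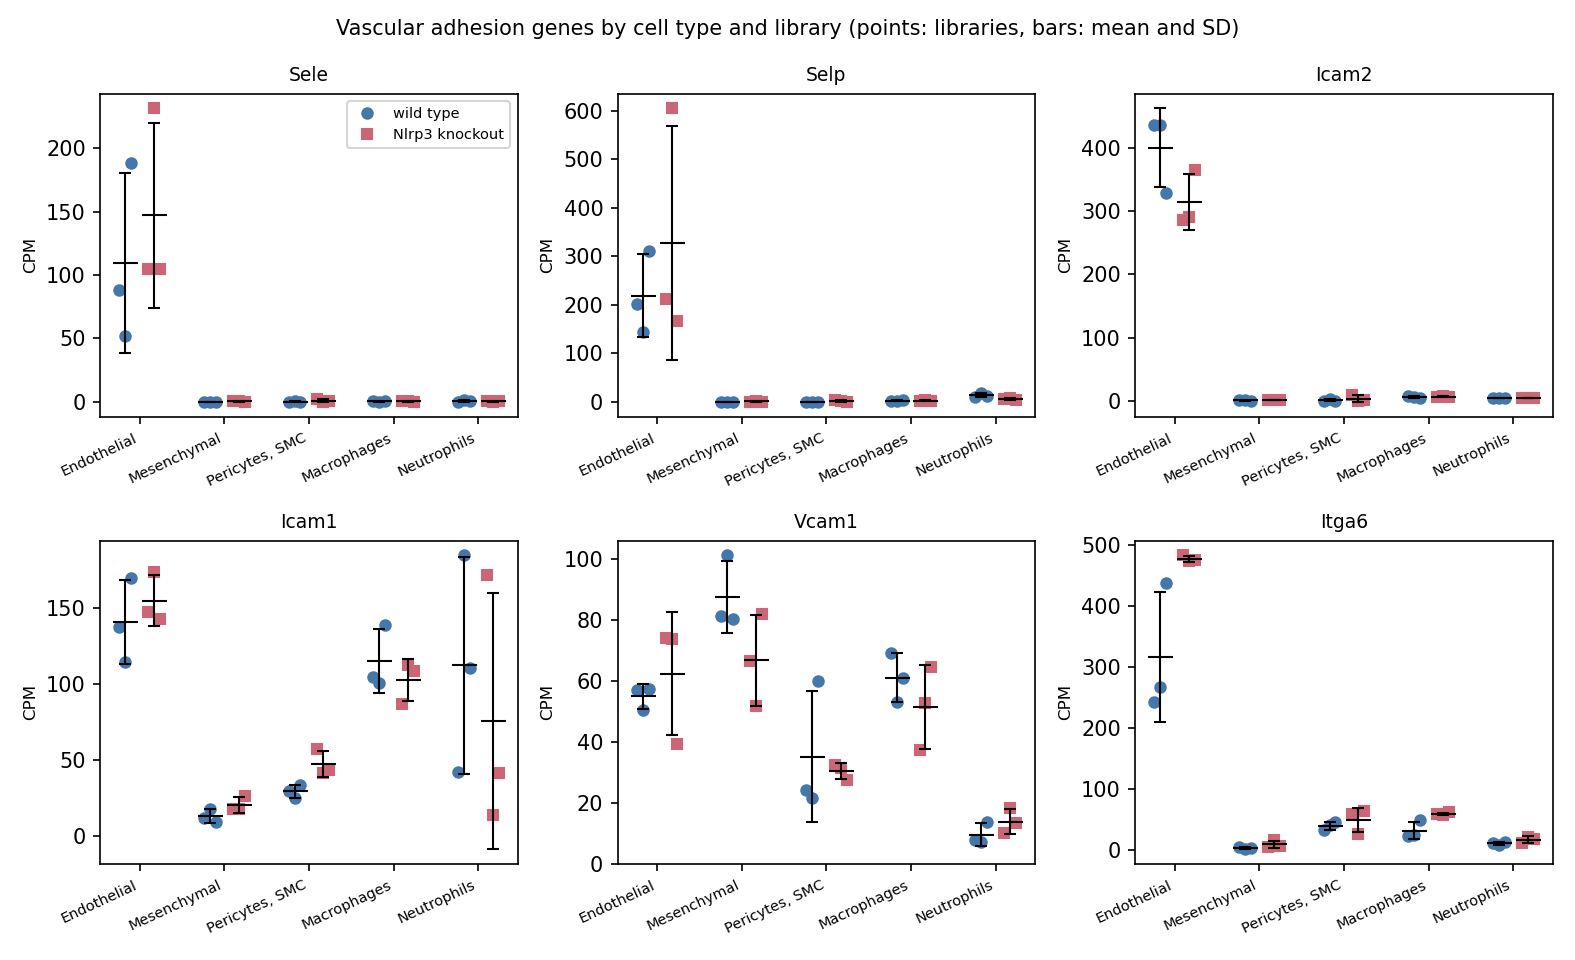
Level in CPM (vertical axis, linear) of Sele, Selp, Icam2, Icam1, Vcam1 and Itga6 in 5 cell types (horizontal axis), with a point for each library by genotype and bars for the mean and SD of 3 libraries. Sele, Selp, Icam2 and Itga6 are high in endothelial cells, while Icam1 in neutrophils spreads from 13.6 to 185 CPM and Vcam1 is also high in mesenchymal cells and macrophages.

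Within the macrophages, subsets named from their own markers divided the genes further. Vcam1 was at 151, 274 and 367 CPM (lowest, median, highest) in C1q Mrc1 macrophages, which resemble resident cells. It was at 4.90 CPM in Arg1 macrophages and at 2.56 in inflammatory monocytes. Itga9 and Itgb5 were also highest in the C1q Mrc1 subset among the macrophage subsets, at 55.6 and 207 CPM. Inflammatory monocytes held Itga4 at 148, 246 and 332 CPM and Itgb7 at 151, 157 and 257 CPM, the highest of the macrophage subsets for both genes, and Itgal at 133 CPM. Arg1 macrophages held Itgam at 399, 508 and 580.5 CPM and Itgb2 at 374, 437.5 and 513 CPM, which did not overlap with the other macrophage subsets.

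Mature neutrophils and dividing neutrophil precursors differed without overlap in Selplg. It was at 291, 311.5 and 424 CPM in the mature cells and at 22.9, 26.3 and 35.7 CPM in the precursors. Itgal was at 144, 227 and 283 CPM in the mature cells and at 35.2, 50.2 and 76.4 CPM in the precursors. These ranges did not overlap either. The mature subset held 33 to 1614 cells per library. Among mesenchymal subsets, synovial lining fibroblasts held Itgb3 at 58.0, 77.0 and 141 CPM and Itga5 at 226, 289.7 and 333 CPM. Tenocyte-lineage cells, read in 5 libraries, held Itga11 at 151, 177 and 202 CPM, above the 92.5 CPM of the highest library of inflammatory fibroblasts. Vcam1 was at 115, 134 and 171 CPM in inflammatory fibroblasts and at 28.4, 34.5 and 42.7 CPM in tenocyte-lineage cells. These subset levels carry no test.

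**Figure D3:**
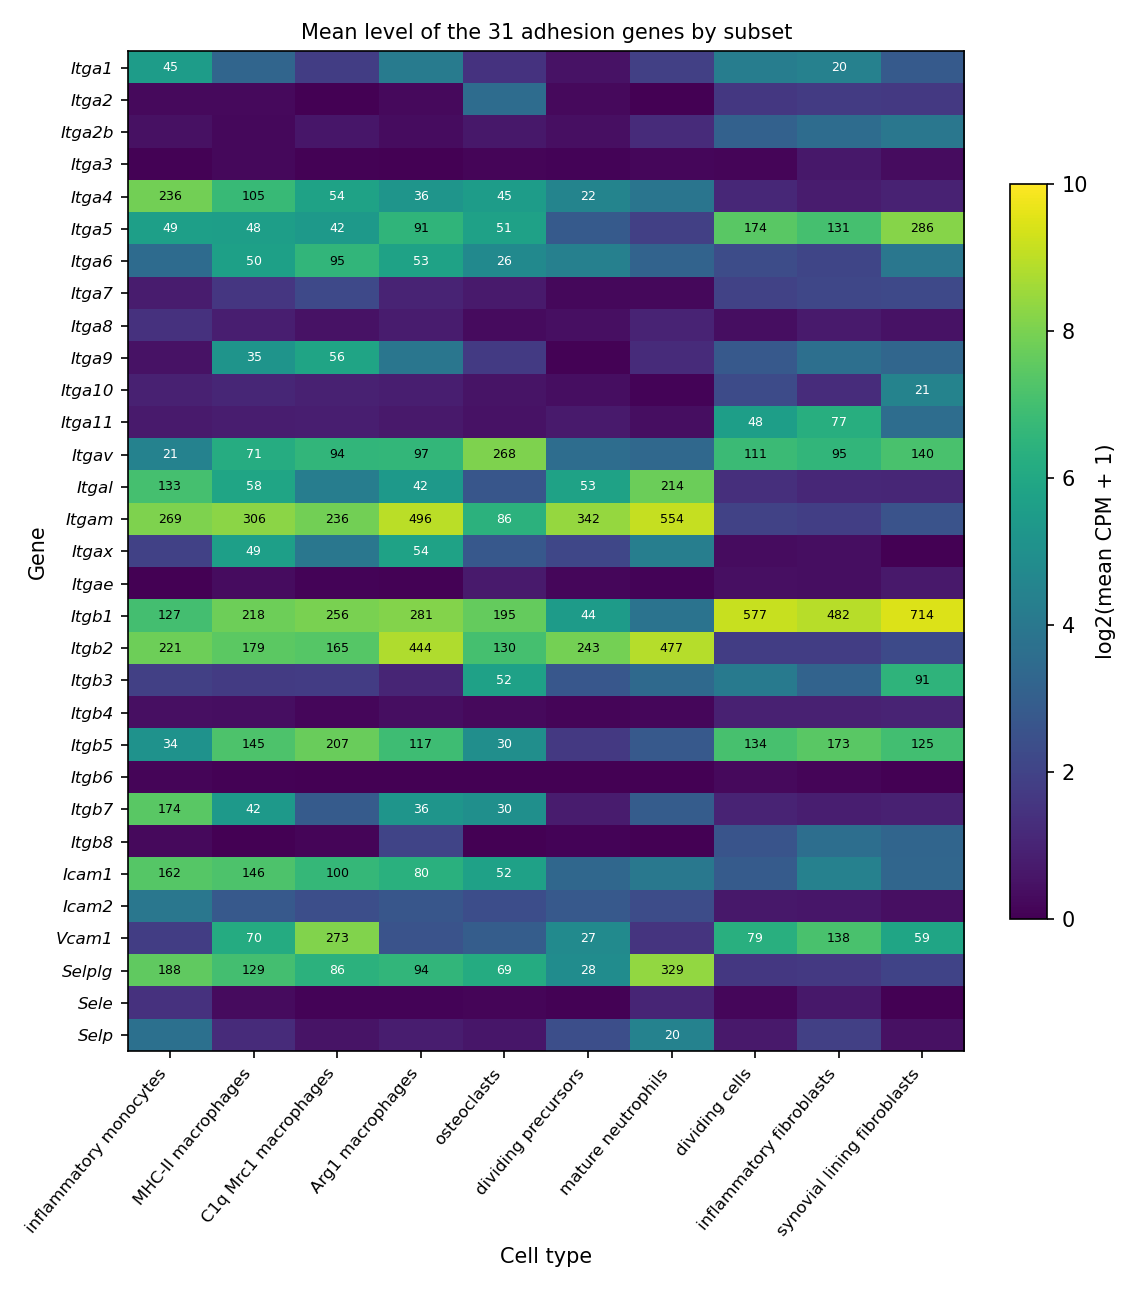
Mean level of the 31 genes (rows) in 10 subsets of macrophages, neutrophils and mesenchymal cells (columns) with 6 libraries each, on a colour scale of log2(mean CPM + 1), with the mean CPM printed where it is at least 20. Vcam1 is printed at 273 in C1q Mrc1 macrophages, Selplg at 329 in mature neutrophils and Itgb3 at 52 in osteoclasts and 91 in synovial lining fibroblasts.

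Neutrophils were set against macrophages of the same libraries to ask which adhesion genes divide the main infiltrating leukocytes. Of the 27 genes tested, 9 were higher and 12 lower in neutrophils at a Benjamini-Hochberg adjusted p under 0.05 (edgeR quasi-likelihood test with the library as a block). Over all 13629 genes 39% were higher and 40.6% lower, so a call by itself was common. Among the 14 genes present in either type, Itgal (log2 fold change 2.18, SE 0.142, edgeR adjusted p = 2.3e-07), Itgam (1.75, SE 0.0814) and Itgb2 (1.38, SE 0.0729) were higher, each in 6 of 6 libraries. Selplg was also called higher, by 1.13 (SE 0.199), in 4 of 6 libraries. Lower were Itgb5 (-4.33, SE 0.235, edgeR adjusted p = 6.2e-08), Itgb7 (-3.05), Itgav (-2.46), Itga5 (-2.07), Itgb1 (-1.65), Vcam1 (-1.46), Itga4 (-0.75) and Itga6 (-0.75). Itgax and Icam1 were not called. The other 5 genes called higher were below 20 CPM in both types. Selp was at 10.15 against 2.48 CPM (2.94, higher in 6 of 6 libraries), and Itga2b (1.66) and Itga11 (1.45) were higher in 5 of 6. By CPM, Itgb3 (0.85) was higher in 3 of 6 libraries and Icam2 (0.37) in 0 of 6.

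This comparison depended on the scaling. The 11 neutrophil markers summed to 319400 to 415100 CPM in neutrophils, and edgeR's scaling for composition (TMM) sets such genes aside when libraries are aligned. With library totals alone the median of all genes moved by -0.86 on the log2 scale, and 23.4% of the called genes were higher in neutrophils, against 49.0% with TMM. The listed genes then split into 4 higher and 16 lower, and Selplg (0.27, edgeR adjusted p = 0.178), Itga2b (0.81) and Itga11 (0.598) lost their calls. Itgb3 moved to -0.0055 and was not called, and Icam2 turned to -0.49 and was called lower (edgeR adjusted p = 0.00842), so in this contrast neither has a direction free of the scaling. The macrophages here include the osteoclasts, which held Itgb3 at 38.7 to 69.9 CPM, while the other macrophages held it at 1.32 to 3.50 CPM, below the 9.13 to 16.97 CPM of neutrophils. Neutrophils were not tested against macrophages without osteoclasts. Itgal, Itgam and Itgb2 were called higher and the same 8 present genes lower under both scalings.

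Endothelial cells were set against mesenchymal cells as the 2 structural types. Of 28 genes tested, 16 were higher and 8 lower in endothelial cells, beside 29.4% higher and 39.2% lower over all 14544 genes. Of the 17 present in either type, 13 were higher: Sele (8.90, SE 0.209), Icam2 (8.598, SE 0.181), Selp (7.86, SE 0.1998), Itga3 (5.91, SE 0.238), Itga6 (5.78, SE 0.306), Itgb4 (4.36), Icam1 (2.93), Itga2 (2.84), Itgb3 (2.28), Itga1 (2.18), Itga9 (2.18), Itga5 (0.47) and Itgb1 (0.32), in log2 units. Each was higher in 6 of 6 libraries. Itga11 (-7.46, SE 0.218), Itgb5 (-5.21, SE 0.179), Itgav (-1.07) and Vcam1 (-0.67) were lower, Vcam1 in 4 of 6 libraries. With library totals alone the median of all genes moved by 0.27 and the share of called genes that were higher from 42.9% to 59.0%, and Vcam1 lost its call (edgeR adjusted p = 0.1).

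Osteoclasts, the bone-resorbing cells that seal themselves to mineral through the product of Itgav and Itgb3, were set against the other macrophages. Itgb3 was at 38.7, 50.8 and 69.9 CPM (lowest, median, highest) in osteoclasts and at 1.32, 2.01 and 3.50 CPM in the other macrophages. Itgav was at 152, 300.1 and 354 CPM against 54.5, 92.4 and 123 CPM. Neither gene overlapped, and edgeR gave log2 fold changes of 4.60 (SE 0.117, adjusted p = 3.5e-12) for Itgb3 and 1.53 (SE 0.0632) for Itgav. Itga2, at 10.54 CPM in osteoclasts and 0.171 CPM in the other macrophages, was the only other gene called higher. Of 25 genes tested 21 were lower in osteoclasts, beside 37.2% lower and 35.8% higher over all 12551 genes. The lower ones included Itgal (-3.63), Vcam1 (-3.46), Itga9 (-3.32), Itgax (-2.32), Itgb5 (-2.10), Itgam (-2.07) and Itgb2 (-1.03). Itgb1 differed least, at -0.24, with 195 ± 49.95 CPM against 218 ± 37.5 CPM.

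The 1573 osteoclasts came from 2 clusters. The first, of 841 cells, was led by osteoclast markers, and the second, of 732 cells, was led by genes of cell division with no osteoclast marker among its 10 leading genes. The 8 osteoclast markers summed to 18680 to 28060 CPM in the first and 2626 to 5063 CPM in the dividing cluster. Itgb3 was at 59.98, 90.8 and 123 CPM (lowest, median, highest) in the first and at 2.71, 3.94 and 8.64 CPM in the dividing cluster. Itgav was at 176 to 432 CPM and at 113 to 283 CPM, which overlapped. Without the dividing cluster, an alternative chosen after the data were seen, the log2 fold change was 5.42 for Itgb3 and 1.78 for Itgav. Of the listed genes 22 were then called in either direction, with the share over all genes not given here. Itgb7 lost its call (-0.23, edgeR adjusted p = 0.178).

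**Figure D4:**
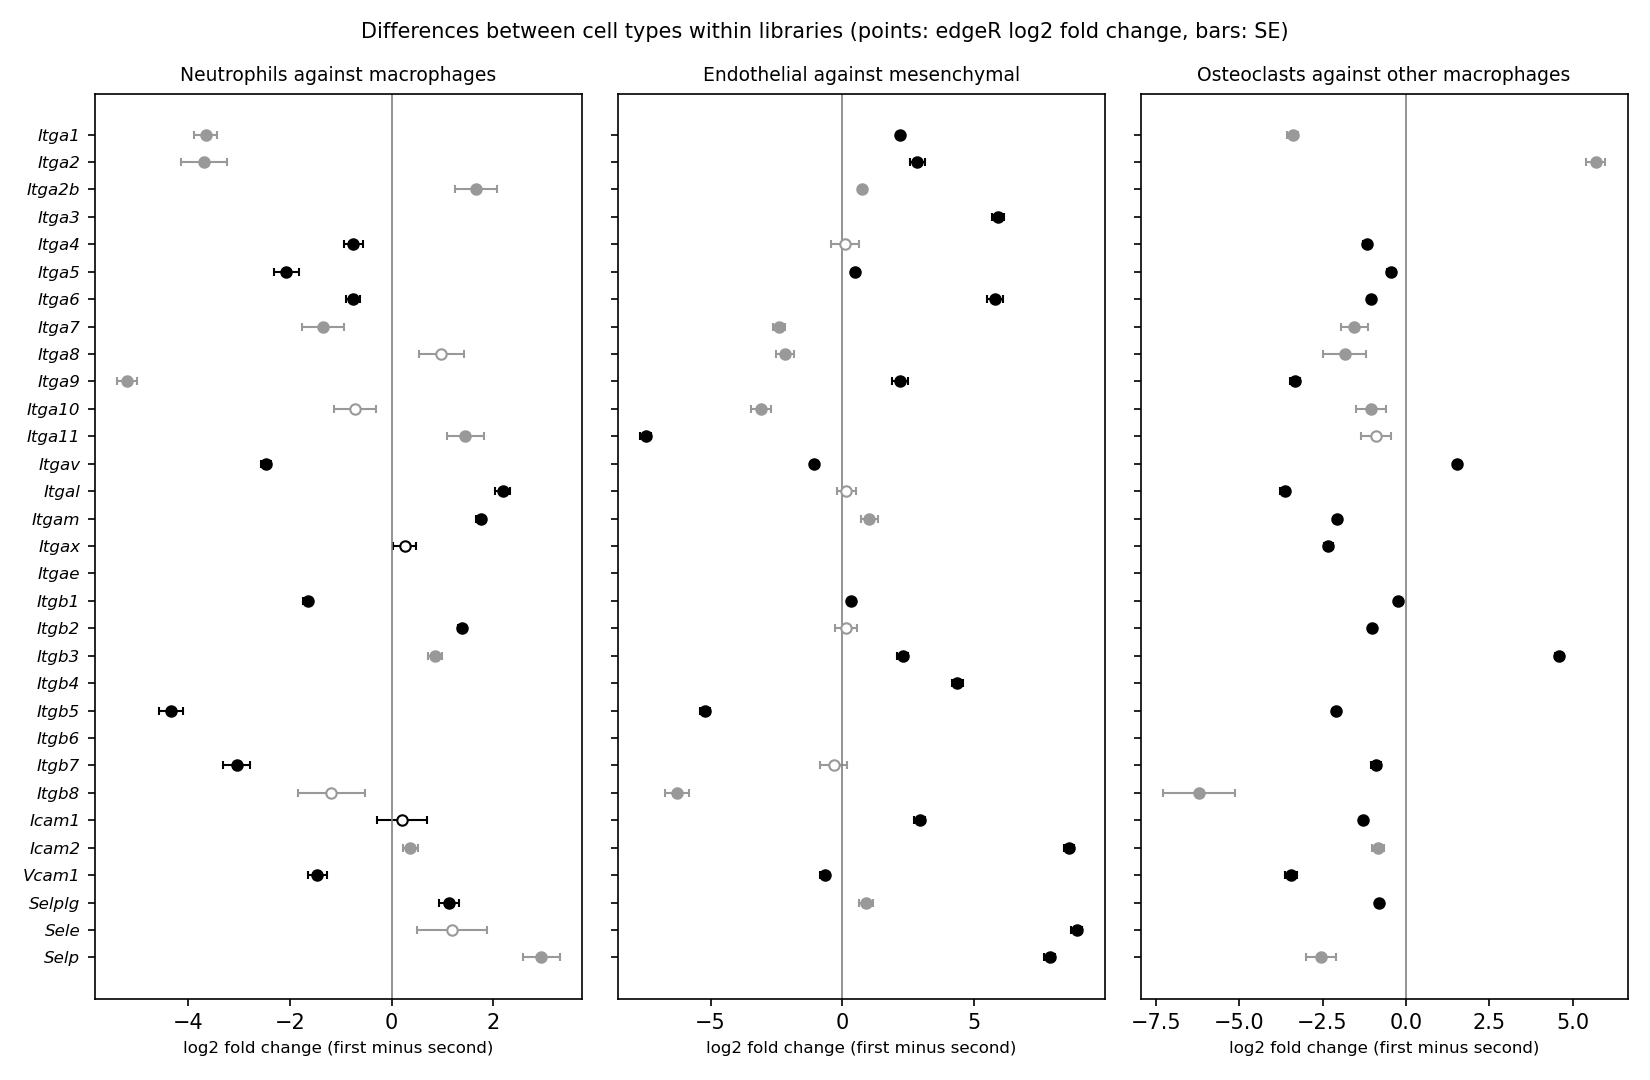
Log2 fold change (horizontal axis, edgeR) of each tested gene (vertical axis) in 3 comparisons of cell types within libraries, with bars for the SE. Black marks genes present in either type and grey those below 20 CPM in both, filled points are called at an adjusted p under 0.05, and Itgb3 and Itgav are the only black points to the right of 0 in osteoclasts.

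The other genes of the pathway were read from 5 lists. In neutrophils against macrophages, 8 of 13 tested genes of integrin activation were called higher and 0 lower with TMM, but 3 higher and 6 lower with library totals alone, so that list has no direction free of the scaling. Its largest called change was Rasgrp2, an activator of the small GTPase that switches integrins on, at 105 CPM in neutrophils and 33.6 in macrophages. Vcl, vinculin, a focal adhesion adaptor, was at 141 against 30.8 CPM. Fn1, fibronectin, a matrix ligand, was at 58.8 against 1185 CPM. In endothelial against mesenchymal cells, 7 of 12 junctional and transmigration genes were higher and 2 lower, with Cdh5, the cadherin of endothelial junctions, at 1531 against 2.22 CPM. Of 17 matrix ligands 6 were higher and 9 lower, with Thbs2 at 13.5 against 1004 CPM. Focal adhesion genes were 8 higher and 3 lower of 16, integrin activation genes 5 higher and 4 lower of 14, and selectin genes with their ligand-making enzymes 3 higher and 5 lower of 11. With library totals alone the 5 lists gave 8 and 1, 8 and 9, 9 and 3, 8 and 3, and 3 and 5 in the same order.

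In osteoclasts against other macrophages, 9 of 13 integrin activation genes were lower and 2 higher, with Rasgrp2 at 5.30 against 40.4 CPM and Fyb, an adaptor of integrin activation, at 41.1 against 214 CPM. Matrix ligands were 6 lower and 0 higher of 13, with Thbs1 at 32.3 against 889 CPM. Selectin genes were 9 lower and 1 higher of 12, junctional genes 7 lower and 1 higher of 10, and focal adhesion genes 7 lower and 6 higher of 15. With library totals alone focal adhesion genes were 5 lower and 7 higher, selectin genes 7 and 1, and junctional genes 6 and 1. For neutrophils, focal adhesion genes were 10 higher and 3 lower of 15 with TMM and 6 and 7 with library totals, selectin genes 8 and 3 of 12 against 4 and 5, junctional genes 5 and 3 of 11 against 2 and 5, and matrix ligands 8 and 5 of 13 against 1 and 5. These counts stand beside the shares over all genes given above.

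Genotype was compared within each cell type, which asks whether loss of Nlrp3 goes with another level of these genes. In the 12 types 1 of the listed genes passed an adjusted p of 0.05 in edgeR's quasi-likelihood test, Itgav in endothelial cells, where 0.607% of all genes did. Itgav was at 28.9, 29.8 and 38.1 CPM in the wild-type and 61.8, 65.7 and 62.4 CPM in the knockout endothelial cells. The groups did not overlap, with a log2 fold change of 0.84 (SE 0.131, edgeR adjusted p = 0.0281). The estimate was 0.78 to 0.90 with each library left out, but the edgeR adjusted p rose to 0.0911 to 0.188 without any library other than wild type replicate 3, and to 0.0975 without Nlrp3 knockout replicate 1. Marker lists of 6 other types were also higher without overlap in these cells, where 26.5% of all present genes separated in either direction. The lists of neutrophils, conventional and plasmacytoid dendritic cells, T cells, NK cells, erythroid cells, megakaryocytes, pericytes and muscle progenitor cells overlapped. The 11 macrophage markers summed to 109 to 135 CPM in the wild-type and 261 to 356 CPM in the knockout libraries, and the 10 mesenchymal markers to 192 to 371 and 520 to 893 CPM, none of either list being at 0. B cell markers summed to 241 to 274 and 318 to 359 CPM, mast cell and basophil markers to 59.9 to 70.2 and 72.6 to 91.4 CPM, progenitor markers to 843 to 1014 and 1046 to 1129 CPM, and Schwann cell markers to 1.49 to 2.49 and 3.90 to 12.1 CPM. The endothelial markers themselves summed to 4329 to 4619 and 4626 to 5526 CPM. Itgav of the empty droplets was at 42.2 to 73.8 and 74.9 to 98.1 CPM. After subtraction of the profile of the empty droplets the log2 fold change was 0.95 with an edgeR adjusted p of 0.103. That subtraction took 20% of the UMIs, the most allowed, from the endothelial cells of wild type replicate 2 and 0.837% to 3.445% in the other 5 libraries. Their part in the result was not tested.

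The other cell types had 0 listed genes called. Itgb7 in neutrophils, at -1.86 log2 units (edgeR adjusted p = 0.0599), passed without Nlrp3 knockout replicate 1 (-1.66, edgeR adjusted p = 0.0349), with DESeq2 and with no filter on low counts. Over all genes, the share called was 0.266% in B cells, 1.81% in conventional dendritic cells, 0.145% in erythroid cells, 0.589% in hematopoietic progenitors, 0.462% in macrophages, 0.367% in mast cells and basophils, 0.0959% in mesenchymal cells, 0.278% in neutrophils, 0.165% in pericytes and smooth muscle cells, 1.76% in plasmacytoid dendritic cells and 0.484% in T and NK cells. From 0 to 7 of the 2 to 27 listed genes tested per type had an unadjusted p under 0.05 in edgeR, and so did 8.27% to 21.7% of all genes per type. Over the 12 types together it was 48 of 197 tests of listed genes and 15.01% of the tests of all genes. Data were also simulated with the library sizes and mean levels of the macrophages and an assumed spread, the same for every gene. There the test recovered 53.4% of genes changed by 1 log2 unit and 99.1% of those changed by 1.5. The same simulation for endothelial cells gave 40.6% and 91.9%. In every simulation only genes at or above a set mean count were changed. Smaller changes would thus often be missed under that spread. The spread of the real libraries was not used, so these shares do not measure the power of the test here.

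In macrophages Itga6 was at 23.1, 24.7 and 49.0 CPM in the wild-type and 59.4, 57.7 and 61.8 CPM in the knockout libraries. The log2 fold change was 0.75 (SE 0.233, edgeR adjusted p = 0.168). Itgav in macrophages was at 70.1, 76.3 and 142 against 127, 181 and 159 CPM (0.55, edgeR adjusted p = 0.24). In both genes wild type replicate 3 was the highest wild-type library, and for Itgav it lay above Nlrp3 knockout replicate 1. In mesenchymal cells Itga5 was at 134, 148 and 99.3 against 91.3, 87.8 and 90.5 CPM (log2 fold change -0.56, edgeR adjusted p = 0.344). Vcam1 there was at 81.1, 101 and 80.3 against 66.3, 51.7 and 81.8 CPM (-0.45, edgeR adjusted p = 0.389). Icam2 in endothelial cells was at 437, 437 and 329 against 287, 291 and 366 CPM (-0.50, edgeR adjusted p = 0.157). In neutrophils Selplg was at 179.9, 235 and 114 against 134, 81.1 and 84.8 CPM, and Icam1 at 41.9, 185 and 110.5 against 172, 13.6 and 41.5 CPM, with overlap in both (log2 fold changes -1.04 and -0.71, edgeR adjusted p = 0.332 and 0.756). Of these, the libraries did not overlap for Itga6 and Itga5.

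Named subsets made up different parts of the neutrophil and mesenchymal classes in the libraries. Of 19250 neutrophils, 2466 were named mature, 2227 dividing precursors and 438 granule-rich immature. Most neutrophils were in none of these subsets. Mature neutrophils, in which Selplg was high, numbered 1614, 581 and 87 of 4767, 4504 and 2943 neutrophils in the wild-type and 81, 33 and 70 of 1963, 2652 and 2421 in the knockout libraries. Within mature neutrophils the log2 fold change of Selplg was -0.31 (edgeR adjusted p = 0.462), and within dividing precursors -0.57 (edgeR adjusted p = 0.203). All mesenchymal cells numbered 1078, 2278 and 1436 in the wild-type and 1594, 1743 and 3041 in the knockout libraries. Among them, inflammatory fibroblasts, in which Vcam1 was high, numbered 387, 955 and 194 against 93, 169 and 391 cells. Tenocyte-lineage cells numbered 19, 102 and 457 against 53, 491 and 574. Within inflammatory fibroblasts the log2 fold change was 0.14 for Vcam1 (edgeR adjusted p = 0.774) and 0.19 for Itga5 (edgeR adjusted p = 0.861). The part of the subsets in the values of the whole classes was not tested.

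Within the subsets 3 listed genes passed, of 146 tests, beside 0.614% of the tests of all genes. The count was 31 (9.21% of all genes) without wild type replicate 3 and 0 without each of the other 5 libraries. In MHC-II macrophages, where 1.75% of genes were called, Itga6 was at 23.1, 20.3 and 50.1 CPM in the wild-type and 62.4, 74.8 and 72.0 CPM in the knockout libraries (log2 fold change 1.15, SE 0.2515, edgeR adjusted p = 0.0392). Itgb5 in the same cells was at 83.0, 89.2 and 135 against 167, 215 and 182 CPM (0.78, SE 0.171, edgeR adjusted p = 0.0392). The 8 markers of C1q Mrc1 macrophages, the subset with the highest Itgb5 and Itga6 of the macrophages, summed in these cells to 6274 to 7170 CPM in the wild-type and 9041 to 9219 CPM in the knockout libraries, and their part in the result was not tested. In osteoclasts, where 0.715% of genes were called, Vcam1 was at 7.56, 10.8 and 10.4 against 3.59, 3.55 and 4.54 CPM on 159 UMIs in all (-1.46, SE 0.263, edgeR adjusted p = 0.0287). Of the 3 calls, none passed without Nlrp3 knockout replicate 1 (edgeR adjusted p = 0.0903, 0.0876 and 0.0931). The Vcam1 call was lost in 8 alternatives, and DESeq2 gave it a log2 fold change of -1.49 and no adjusted p. In the dividing cluster Vcam1 was at 15.25, 24.5 and 23.0 against 6.37, 6.48 and 6.77 CPM, while in the cluster led by osteoclast markers it was at most 2.74 CPM. The C1q Mrc1 markers of the whole osteoclast class summed to 509 to 952 CPM in the wild-type and 1259 to 1688 CPM in the knockout libraries. Their part in the Vcam1 call was not tested.

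The other subsets had 0 listed genes called. The shares over all genes there were 0.168% in Arg1 macrophages, 0.69% in C1q Mrc1 macrophages, 0.515% in inflammatory monocytes, 0.984% in dividing neutrophil precursors, 2.96% in mature neutrophils, 0.14% in dividing mesenchymal cells, 0.123% in inflammatory fibroblasts and 0.2% in synovial lining fibroblasts.

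**Figure D5:**
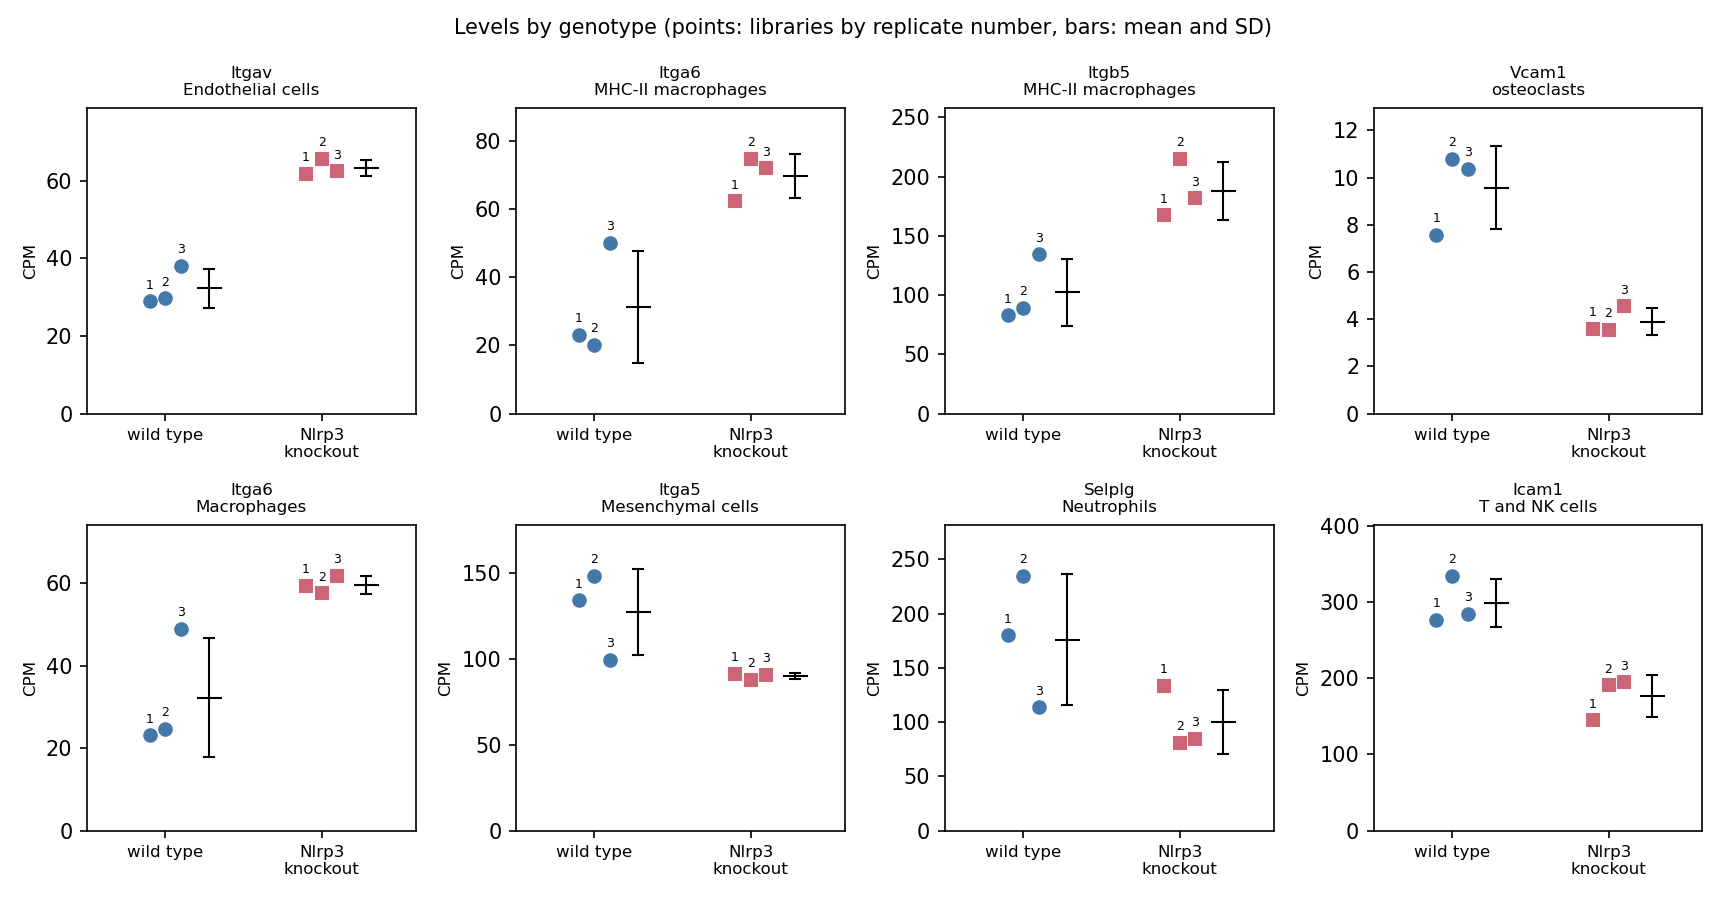
Level in CPM (vertical axis, linear, from 0) of 8 combinations of gene and cell type in the wild-type and Nlrp3 knockout libraries, with a point for each library labelled by its replicate number and bars for the mean and SD of 3. The upper row holds the 4 combinations past an adjusted p of 0.05, and the lower row holds 4 that did not pass, of which Selplg in neutrophils overlaps.

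Complete separation of the genotypes was then counted among present genes. It was seen for 3 of 8 listed genes in B cells (12.8% of all present genes), 5 of 11 in conventional dendritic cells (29.2%), 2 of 15 in endothelial cells (26.5%), 2 of 2 in erythroid cells (31.4%, over 2 wild-type and 3 knockout libraries), 3 of 12 in hematopoietic progenitors (29.8%) and 3 of 14 in macrophages (23.5%). In mast cells and basophils it was 3 of 13 (19%), in mesenchymal cells 2 of 6 (20.3%), in neutrophils 0 of 7 (18.3%), in pericytes and smooth muscle cells 2 of 11 (19.1%), in plasmacytoid dendritic cells 1 of 9 (19.4%) and in T and NK cells 4 of 15 (18.8%). Itga6 was higher without overlap in knockout B cells, endothelial cells, macrophages, mast cells and basophils, and T and NK cells. Itgav was so in conventional dendritic cells, endothelial cells, mesenchymal cells, pericytes, and T and NK cells, and Itga4 in conventional and plasmacytoid dendritic cells, erythroid cells and hematopoietic progenitors. Itgb1 was so in conventional dendritic cells, erythroid cells, hematopoietic progenitors and macrophages. These types came from the same 6 libraries and so are not repeats of each other. Itga6, Itga4 and Itgav all lie on chromosome 2, with starts at 71745616, 79255426 and 83724397. The study's methods name different suppliers for the wild-type and the knockout mice, and the part of position or supplier was not tested. In the empty droplets Itga6 was also separated, at 21.7 to 32.0 CPM in the wild-type and 37.2 to 47.7 CPM in the knockout libraries.

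Icam1 was lower without overlap in knockout T and NK cells, where it was at 277, 335 and 285 against 145, 191 and 195 CPM (log2 fold change -0.93, SE 0.193, edgeR adjusted p = 0.0532). It was the listed gene nearest to the threshold among those not called in the 12 types. It passed with doublets removed at 1.6% per 1000 cells (edgeR adjusted p = 0.0467), with no filter on low counts (edgeR adjusted p = 0.00288) and without wild type replicate 3 (edgeR adjusted p = 0.0198). In the empty droplets Icam1 was also lower without overlap, at 108, 139.8 and 114 against 97.3, 67.05 and 92.1 CPM, and so was Selplg, at 63.6 to 89.6 against 48.55 to 50.7 CPM. Their part in the result was not tested.

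The difference of the genotype effect between neutrophils and macrophages was tested as an interaction in edgeR. Of 27 genes 0 passed, beside 2 of 13629 genes, or 0.0147%, over the whole table. At an unadjusted p under 0.05 there were 6 of the 27 and 8.49% of all genes. Itgb7 came closest, at -1.59 log2 units (SE 0.2804, edgeR adjusted p = 0.155). It was at 5.17, 5.35 and 5.30 CPM in the wild-type and 0.854, 2.23 and 1.85 CPM in the knockout neutrophils, and at 57.9, 44.7 and 59.5 against 41.8, 73.1 and 36.3 CPM in macrophages, where the groups overlapped. On data simulated with the same assumed spread this test recovered 10.3% of genes changed by 1 log2 unit and 52.7% of those changed by 1.5.

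In the pathway lists the genotype test made 7 calls in 4 types. Over all genes the share called was 1.81% in conventional dendritic cells and 0.607% in endothelial cells. It was 1.76% in plasmacytoid dendritic cells and 0.484% in T and NK cells. In conventional dendritic cells F11r and Alcam (2 of 5 junctional genes tested; 0.84 and 0.83 log2 units) and Spp1 and Fn1 (2 of 7 matrix ligands; 2.73 and 1.95) were higher in the knockout libraries. Spp1, osteopontin, a ligand of Itgav integrins, was at 99.2, 80.0 and 149 against 1593, 169 and 642 CPM there, with the highest value in Nlrp3 knockout replicate 1. In endothelial cells Sirpa, an inhibitory receptor of myeloid cells, was higher by 0.91 (1 of 11 junctional genes tested, edgeR adjusted p = 0.0498). The marker lists of other types that were also higher in these cells are given above, and their part was not tested. In plasmacytoid dendritic cells Fn1 was higher by 1.51 (1 of 4 matrix ligands), and in T and NK cells Npnt, nephronectin, by 1.87 (1 of 10). Without Nlrp3 knockout replicate 1 only Fn1 in plasmacytoid dendritic cells passed (1.77, edgeR adjusted p = 0.00757), and the other 6 had edgeR adjusted p values of 0.0558 to 0.132. That Fn1 call was lost without each of the other 5 libraries (1.06 to 1.82 log2 units, edgeR adjusted p = 0.0641 to 0.482). With a library left out, F11r, Alcam, Sirpa and Npnt passed only without wild type replicate 3. Fn1 and Spp1 of conventional dendritic cells passed only without that library or without Nlrp3 knockout replicate 2. In conventional dendritic cells without Nlrp3 knockout replicate 1, Fn1 was at 0.95 and Spp1 at 1.72 log2 units. None of these genes was lower, and the integrin activation, focal adhesion and selectin lists had 0 calls in the 12 types.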

How the data were processed

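The matrices deposited by the authors held UMI counts per gene and barcode, one per library, unfiltered and not normalized. The file headers name Cell Ranger 4, while the submitters' processing notes name version 2.1.1 and the mm10 build. The parameters of alignment are not given in the sources used here. Barcodes were kept as cells at 500 or more UMIs, 200 or more genes and at most 10% mitochondrial UMIs, when they differed from the profile of barcodes with at most 100 UMIs. Doublets were scored in each library and removed at a rate of 0.8% per 1000 cells. Cells were clustered with scanpy 1.11.5 and leidenalg 0.10.2 (resolution 1.0) on 2000 variable genes from which the 31 genes, Nlrp3, Xist, Tsix and Y-linked genes had been removed, and were named from marker lists, with naming thresholds set after the clusters were seen. The members and the lists were chosen with earlier results of these data known.

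For each type, the counts of a library's cells were added up where the library held 20 or more of them. The sums were tested across all genes with edgeR 4.0.16 (quasi-likelihood test, TMM, low-count filter, Benjamini-Hochberg adjustment over all genes tested). Genotypes were compared over 3 against 3 libraries in each type (2 wild-type against 3 knockout libraries in erythroid cells), and types within libraries with the library as a block. Every gene of the list was accounted for. Those named with each library's value were the genes past an adjusted p of 0.05 and, in neutrophils, macrophages, mesenchymal cells and endothelial cells, the 2 present genes with the largest absolute change, and Sele, Selp, Itgb7, Itgb3, T and NK cell Icam1, the genes under 20 CPM called higher in neutrophils and the muscle progenitor values were added after their values were seen. For each type up to 3 present genes with the highest ratio to the median type were named. The pathway lists name up to 2 called genes per list. The tests were run on data simulated with an assumed spread. Alternatives were DESeq2 1.42.0, other size factors, no filter, other cell filters, a finer clustering, subtraction of the empty-droplet profile, a replicate block, leaving out each library and, chosen after the data were seen, library totals and osteoclasts without a dividing cluster. The libraries held 97042713 to 134901999 UMIs. Levels under about 20 CPM rest on few UMIs in the small types, and counts cover counting error only.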

Additional observations from a re-analysis of the deposited data

Results flagged for a closer look

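Icam1 and Selplg were separated in opposite directions in different cell types, with every knockout library on one side of every wild-type library. Such separation was seen for 12.8% (B cells) to 29.8% (hematopoietic progenitors) of all present genes in the types named here. Icam1 was higher in knockout pericytes and smooth muscle cells (log2 fold change 0.60), where it was at 29.4, 24.97 and 33.6 CPM in the wild-type and 56.9, 41.4 and 43.2 CPM in the knockout libraries. It was lower in knockout B cells (-0.61), at 166, 190.2 and 147 against 113, 99.7 and 133 CPM. It was also lower in knockout mast cells and basophils (-0.62), at 115, 124 and 109 against 89.9, 62.5 and 108 CPM, and in T and NK cells (-0.93), where the levels are given above.

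Selplg was higher in knockout B cells (0.59), at 59.0, 58.6 and 82.5 against 103, 118 and 93.5 CPM. In hematopoietic progenitors it was lower (-0.46), at 145, 118 and 119.7 against 111, 100.7 and 109 CPM. The difference between the cell types was not tested for either gene, and none of these 6 values passed an adjusted p of 0.05 in the edgeR fits of the report. Icam1 in T and NK cells passed in the 3 alternatives given above, and Selplg in hematopoietic progenitors with no filter on low counts (edgeR adjusted p = 0.0298) and without wild type replicate 3 (edgeR adjusted p = 0.0213).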

How the results depend on the processing

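The count of genes called by genotype over the 12 types, 1 in the report, was 19 with no filter on low counts, 6 with DESeq2, 2 with doublets removed at 1.6% per 1000 cells and 0 after subtraction of the empty-droplet profile, which took the most allowed from endothelial cells of wild type replicate 2. Over all genes the share called, 0.504% in the report's fits, was 2.26%, 2.11%, 0.47% and 0.489% in the same order. With each library left out the count ranged from 0 to 26, with 26 (8.53% of all genes) without wild type replicate 3 and 0 without wild type replicate 1, wild type replicate 2 or Nlrp3 knockout replicate 2. The interaction, with 0 calls, gave 1 with no filter and 1 with DESeq2, for which the shares over all genes are not given here. The cause of these changes was not tested. Between cell types the counts of called genes, both directions together, were 19 to 23 for neutrophils against macrophages over the alternatives run. They were 23 to 24 for endothelial against mesenchymal cells and 21 to 24 for osteoclasts. The shares over all genes are not given here for each alternative. For neutrophils the split moved from 9 higher and 12 lower to 4 and 16 with library totals. Of all called genes there, 49.0% were higher with TMM and 23.4% with library totals. In the subsets the count of 3 was 18 with no filter (2.67% of all genes) and 6 with DESeq2 (1.62%). Of the listed genes recomputed, 5 values turned: Itgb3 (-0.0055) and Icam2 (-0.49) in neutrophils against macrophages with library totals, Sele by genotype in endothelial cells without wild type replicate 2 (-0.034) and without Nlrp3 knockout replicate 2 (-0.12), and Selp there without Nlrp3 knockout replicate 2 (-0.31). With each library left out Sele there ranged from -0.12 to 0.86 and Selp from -0.31 to 0.75. The pathway genes were recomputed only with libraries left out, for the genotype calls, and with library totals. Library totals only, an alternative chosen after the data were seen, ended the calls that the report names with it and that of Vcam1 in osteoclasts by genotype (edgeR adjusted p = 0.0533). The latter, and Itga6 and Itgb5 in MHC-II macrophages, passed in 1 of 6 fits with a library left out, the one without wild type replicate 3. Itgb7 in neutrophils passed with DESeq2 (adjusted p = 0.000866) and with no filter (edgeR adjusted p = 0.00924), and its interaction with both. Itga6 in macrophages passed with no filter (edgeR adjusted p = 0.0458), with DESeq2 (adjusted p = 0.0411) and without wild type replicate 3 (edgeR adjusted p = 0.00258).

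Samples with the same replicate number did not deviate together (correlations from -0.578 to 0.029), so the numbers were not taken as pairs. With the replicate block 1 gene was called over the 12 types, and Vcam1 in osteoclasts was not (edgeR adjusted p = 0.0524). Doublets removed at 1.6% also ended that call (edgeR adjusted p = 0.0664). The finer clustering was not run for the subsets, nor the subtraction for erythroid cells.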
